A study of Arabidopsis thaliana with 12 samples.

Results

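Roots of Arabidopsis thaliana seedlings labelled aladin were compared with roots of the wild type, the accession Wassilewskija-4 (often shortened to Ws-4). The comparison used the 6 root arrays of a series of 12, chosen by their titles, with 3 arrays in each root group. The other 6 arrays were the shoots of the same lines and enter here only where a root difference is set beside that in shoot. The signal was measured on Affymetrix Arabidopsis Gene 1.0 ST arrays for 38408 probe sets, and the 17481 probe sets linked to at least 1 named gene were tested.

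The wild-type root group held seedlings with no mutation named in the labels. The aladin root group held the mutant named after ALADIN (AT3G56900), for which the series gives Wassilewskija-4 as the wild type, and the labels give neither the allele nor the site of the mutation. All seedlings were 10 days old and had grown, after 3 days of stratification, at 20 °C and 16 h of light per day on upright plates whose agar (1%) held 1% sucrose. Roots and shoots were cut apart and frozen. The titles call the replicates biological. How many seedlings went into 1 array, and whether the replicates came from separate plates, is not given in the labels, and p-values measure the spread between these samples. Arrays are called libraries below.

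The ALADIN protein belongs to the nuclear pore complex, through which RNA and proteins pass between nucleus and cytoplasm. In humans and other animals it is tethered to the pore by the membrane protein NDC1, and loss of human ALADIN causes triple A syndrome. Seedling roots grow by division in a meristem and by expansion of the cells behind it, where expansins loosen the wall and lignin later stiffens it. Calmodulin-like proteins, ERF, WRKY and ZAT transcription factors and plant U-box ubiquitin ligases are known as fast responders to wounding, touch and microbial signals in plants.

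Signals are on the log2 scale of RMA, so that a difference of 1 is a 2-fold change. The median signal of the root libraries lay between 5.96 and 6.0. Pearson's r across the tested probe sets was 0.995 to 0.997 within wild-type root, 0.995 to 0.996 within aladin root and 0.987 to 0.989 between them. Of the listed root markers 3 of 33 were measured (the root hair expansins EXPA7 and EXPA18 and the beta-glucosidase PYK10), and all 3 were higher in wild-type root than in wild-type shoot. None of the 10 measured shoot markers, of 37 listed, was higher in wild-type root than in wild-type shoot. Differences below are log2 values of the libraries labelled aladin minus wild type, with limma's standard error (SE) from 3 libraries per group. Values of p are limma's, adjusted by Benjamini and Hochberg over the 17481 probe sets, and a probe set was called at an adjusted p under 0.05. The table gives no detection calls. Levels under 3.95, the lower quartile of the root means, are called dim below, and a difference from a dim group is set against a signal not shown to be above background. Of 107 called genes named here, 7 were dim in all 3 libraries of at least 1 group (AT1G19210, AT5G55270, BHLH92, CML37 and GRX480 in wild-type root, AT2G33850 in aladin root and AT3G56891 in both). A call is said to hold where it also passed without each of the 6 root libraries in turn.

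ALADIN itself gave more signal, not less, in aladin root than in wild-type root. Its level was 8.42, 8.40 and 8.36 in the wild-type root libraries and 12.58, 12.73 and 12.76 in the aladin ones, a difference of 4.29 (SE 0.076, adjusted p = 7.91e-07). The groups stood more than 4 log2 units apart. The label names this gene as the mutated one, and its signal was not reduced. Every direction here is therefore that of the libraries labelled aladin, and the place of its probes relative to the mutation is not known.

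AT3G56920, the first measured gene to one side of ALADIN, rose as well. Its level was 4.43, 4.76 and 4.62 in wild-type root and 7.78, 7.73 and 7.79 in aladin root, a difference of 3.16 (SE 0.094, adjusted p = 8.04e-06). The nearest on the other side, AT3G56891, fell by 0.92 (SE 0.076, adjusted p = 0.00047), from 3.78, 3.69 and 3.81 to 2.93, 2.81 and 2.79. AT3G56880 lay 2 measured genes beyond it and rose by 0.74 (adjusted p = 0.00129), and AT3G57020 on the first side fell by 0.65 (adjusted p = 0.00234). The groups did not overlap for any of these 4 neighbours, all of which were called. The same was true of all 1793 calls and of 31.7% of all probe sets. Of the 10 measured genes nearest to ALADIN, 5 on each side, 5 were called (beside 10.3% of all probe sets) and 5 did not pass.

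Root differences ran in both directions, with the larger ones mostly upward. Of the 17481 probe sets 1793 were called, 10.3%, with 987 rises (5.65%) and 806 falls (4.61%). The median difference was 0.68 among the rises, -0.48 among the falls and -0.04 over all probe sets. A change of at least 2-fold was found for 264 rises and 57 falls, 1.84% of those tested, and of at least 4-fold for 28 rises and 4 falls. The 3 values of one group lay wholly above or below those of the other for 31.7% of all probe sets and for all 1793 calls. Calls held for 841 probe sets (4.81%), 564 rises and 277 falls. Leaving out wild-type root replicate 3 gave 1025 calls, aladin root replicate 2 gave 1078, wild-type root replicate 2 gave 1101 and wild-type root replicate 1 gave 1187. The falls depended on how the spread was estimated, with 527 when all 12 arrays shared 1 estimate and 1301 with a trended, robust prior. They also depended on single libraries, with 379 without wild-type root replicate 3. Most called genes are known here by a locus code alone (1429 of 1712 called probe sets with a single gene), and for these no role is given.

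**Figure D1:**
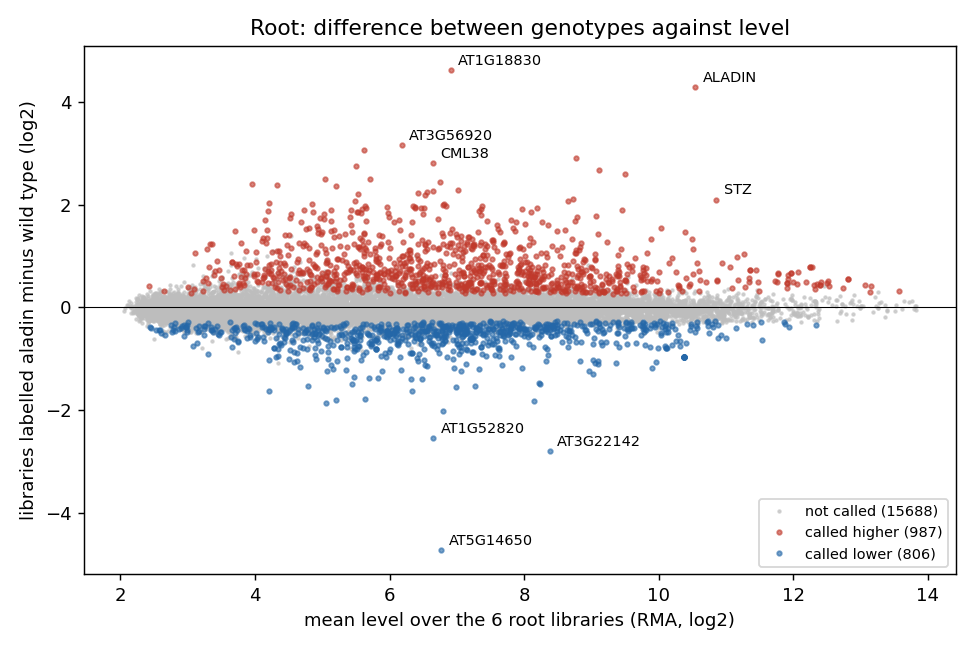
Difference between the libraries labelled aladin and wild type in root (log2, vertical axis) against the mean level over the 6 root libraries (RMA, log2, horizontal axis), 1 point per tested probe set. Red points are the 987 called higher, blue points the 806 called lower and grey points did not pass; AT1G18830 and ALADIN stand highest and AT5G14650 lowest.

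AT1G18830 showed the largest rise. RefSeq gives it the synonym SEC31A, a subunit of the COPII coat of vesicles that leave the endoplasmic reticulum. It read 4.57, 4.79 and 4.42 in wild-type root and 9.06, 9.44 and 9.16 in aladin root, a difference of 4.63 or 24.8-fold (SE 0.13, adjusted p = 8.04e-06). Wild-type and aladin shoot differed by 0.01, and the root effect minus the shoot effect passed its own test (4.62, adjusted p = 2.72e-07). AT3G63460, given there as SEC31B, did not pass in root (-0.10, adjusted p = 0.472). Neither it nor the third measured vesicle coat gene was called.

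CML38, a calmodulin-like calcium sensor, read 5.21, 5.18 and 5.32 in wild-type root and 8.05, 7.99 and 8.11 in aladin root. This 7.01-fold rise (log2 difference 2.81, SE 0.075, adjusted p = 8.04e-06) also differed from the change in shoot, by 2.02. CCOAMT, a caffeoyl-CoA O-methyltransferase of the kind that methylates lignin precursors, went from 4.21, 3.73 and 4.42 to 6.92, 7.06 and 6.67 (2.76, SE 0.18, adjusted p = 0.000174). In all 3 genes the lowest aladin library lay over 2 log2 units above the highest wild-type library. GRX480, a glutaredoxin known to bind TGA transcription factors, rose by 2.01 (SE 0.10, adjusted p = 5.75e-05), from dim levels of 3.92, 3.85 and 3.76 to 5.69, 5.84 and 6.03. STZ, the zinc-finger repressor also called ZAT10, rose 4.3-fold (2.1, SE 0.11, adjusted p = 5.82e-05), from 9.96, 9.59 and 9.86 to 11.87, 11.84 and 12.01.

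The remaining genes among the 15 largest rises carry locus codes only. AT5G42530 rose by 3.06 (SE 0.53, adjusted p = 0.0113), but its libraries scattered, with 4.62, 3.24 and 4.39 in wild-type root and 6.71, 6.45 and 8.28 in aladin root. It was also a shoot gene in these data, 8.17 log2 units lower in wild-type root than in wild-type shoot. AT5G03204 (2.92), AT5G57510 (2.68), AT4G29780 (2.60), AT4G05380 and AT4G27654 (2.51 each) rose by less. AT3G01175 (2.45), AT5G55270 (2.4), AT1G19210 (2.39) and AT2G36650 (2.37) completed the 15. All 10 of these calls held.

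The largest fall was that of AT5G14650. It read 9.54, 8.74 and 9.14 in wild-type root and 4.40, 4.60 and 4.21 in aladin root, 26.5-fold lower (log2 difference -4.73, SE 0.20, adjusted p = 3.0e-05). Its fall was larger than the change in shoot by 4.30 log2 units (root effect minus shoot effect -4.30, adjusted p = 5.31e-05). In wild type it was a root gene, 4.41 log2 units higher in root than in shoot.

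Next came AT3G22142, which fell from 9.92, 9.46 and 9.96 to 6.66, 6.72 and 7.56 (-2.80, SE 0.25, adjusted p = 0.00065). AT1G52820 fell from 7.61, 8.14 and 8.03 to 5.76, 5.51 and 4.85 (-2.55, SE 0.24, adjusted p = 0.000784). AT4G12170 fell by 2.03 (SE 0.19, adjusted p = 0.000847). These were the only falls beyond 4-fold besides AT5G14650, and each differed from the shoot by its own test. AT2G21260 (-1.87), AT3G46270 (-1.82), AT4G12545 (-1.79), AT2G33850 and AT1G14960 (-1.63 each) followed. AT5G62210 (-1.55), AT4G09110 (-1.54), AT3G28155 (-1.53), AT5G36130 (-1.50) and AT3G18900 (-1.49) were lower by about as much. EXPB2, a beta-expansin, was the only one of the 15 largest falls with a gene symbol. It read 6.51, 5.72 and 6.11 in wild-type root and 4.22, 4.44 and 4.24 in aladin root, a fall by 1.81 (SE 0.19, adjusted p = 0.00116).

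**Figure D2:**
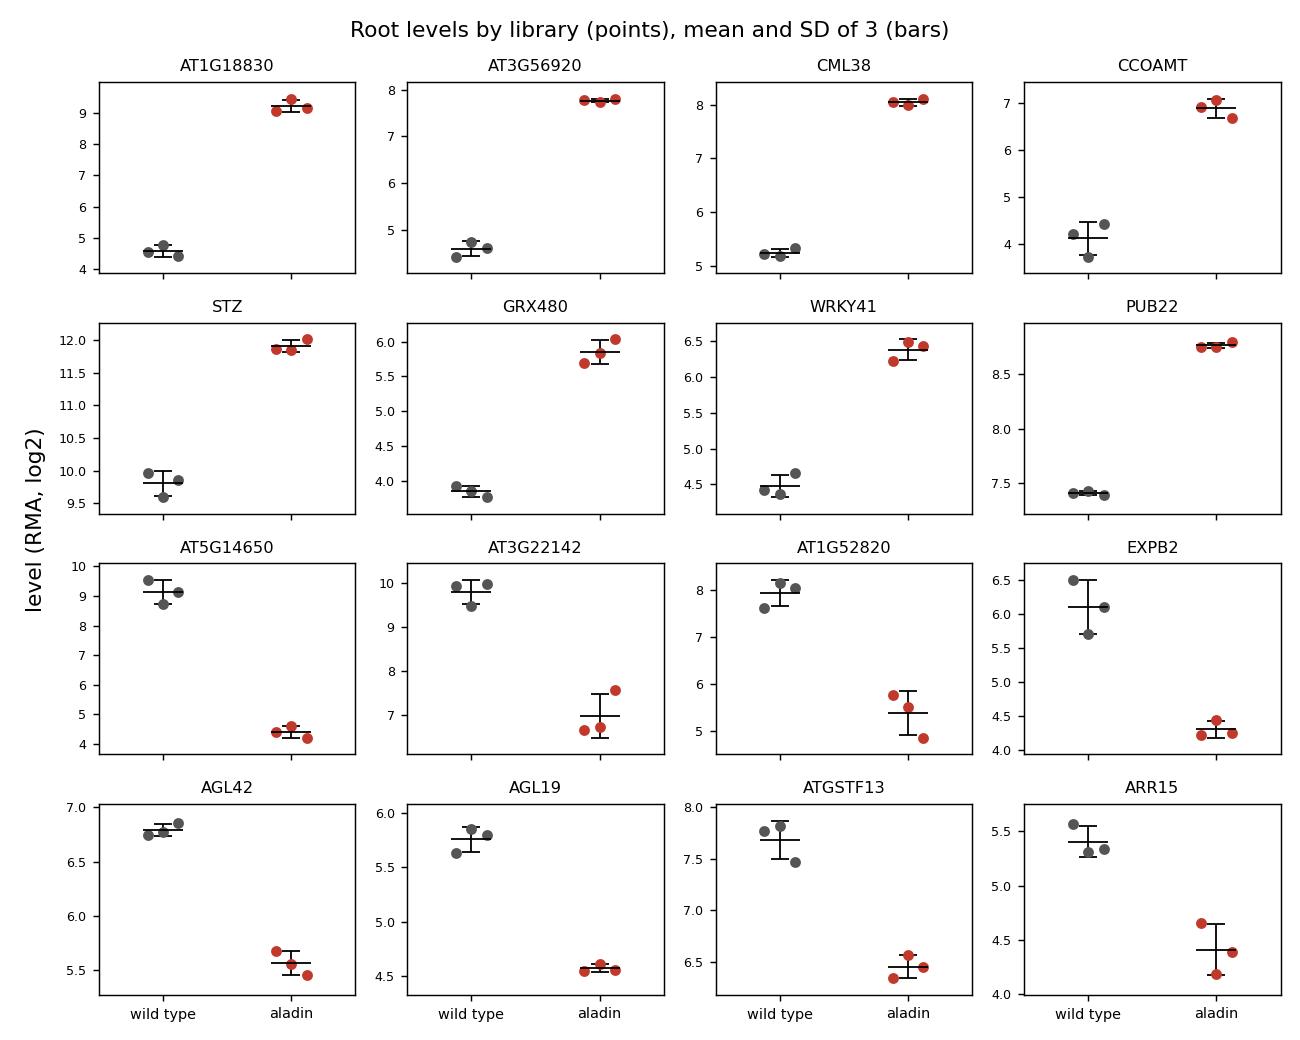
Level in each of the 6 root libraries (RMA, log2, vertical axis, scaled per gene) for 16 genes, with wild type in grey and the libraries labelled aladin in red. Black bars are the mean and SD of 3; in all 16 panels the groups do not overlap, and the first 8 genes are higher and the last 8 lower in aladin root.

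Several calcium sensors and fast-response regulators rose. Of 7 measured calmodulins and calmodulin-like proteins 5 rose (71.4%, beside 5.65% of all probe sets), 0 fell and 2 did not pass, with a median difference of 0.86 against -0.04 over all probe sets, and 4 of the calls held. Beside CML38 these were CML37 (from 3.46, 3.36 and 3.48 to 4.91, 4.74 and 4.73), CML23 (from 4.80, 4.58 and 4.47 to 5.39, 5.65 and 5.39) and AT1G76640, given in RefSeq as CML39. CML37 rose by 1.36 (SE 0.080, adjusted p = 0.000101), and AT1G76640 by 0.88 (SE 0.14, adjusted p = 0.00787). CML23 rose by 0.86 (SE 0.12, adjusted p = 0.0036), and in shoot by 0.95.

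Of 5 measured AP2/ERF transcription factors 3 rose (beside 5.65% of all probe sets) and 2 did not pass (median 0.64). ORA47, an ERF that is known to switch on jasmonate biosynthesis genes, rose by 1.32 (SE 0.19, adjusted p = 0.00493), and DREB2C, of the dehydration-responsive type, by 0.89 (SE 0.094, adjusted p = 0.00129). Of 7 WRKY factors 2 rose (28.6%, beside 5.65% of all probe sets) and 5 did not pass (median 0.30). The call that held was WRKY41, which read 4.42, 4.36 and 4.66 in wild-type root and 6.21, 6.48 and 6.43 in aladin root (1.89, SE 0.11, adjusted p = 9.69e-05). WRKY41 differed by -0.02 in shoot, and its root effect minus shoot effect passed (1.92, adjusted p = 0.00112). BHLH92, a bHLH transcription factor, rose by 1.24 (SE 0.12, adjusted p = 0.000856). Of 10 measured bHLH genes 2 rose (20.0%, beside 5.65% of all probe sets) and 0 fell, and only the call of BHLH92 held.

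Plant U-box ubiquitin ligases were looked at after their values had been seen. Of 10 measured members 4 rose (beside 5.65% of all probe sets), all 4 calls held, and 6 did not pass (median 0.37). PUB22, PUB23 and PUB24, 3 related ligases known to dampen immune signalling, rose by 1.36 (SE 0.065, adjusted p = 4.63e-05), 1.48 (SE 0.094, adjusted p = 0.000142) and 1.43 (SE 0.097, adjusted p = 0.00019). PUB22 was nearly the same in replicates, at 7.41, 7.42 and 7.39 in wild-type root and 8.75, 8.75 and 8.80 in aladin root. PUB23 rose in shoot too, by 1.54, and PUB22 rose less there than in root (0.48; root effect minus shoot effect 0.89, adjusted p = 0.00463). PUB39 rose by 0.39 (SE 0.065, adjusted p = 0.0101).

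Single genes tied to defence and jasmonate were also higher. SAG101, a partner of EDS1 in immunity, rose by 0.51 (SE 0.065, adjusted p = 0.00313). No other gene of its list was measured. DLAH, a lipase of the DAD1-like family, rose by 1.6 (SE 0.17, adjusted p = 0.00129), and OPCL1, a peroxisomal CoA ligase of jasmonate biosynthesis, by 0.96 (SE 0.079, adjusted p = 0.000436). The 3 measured genes of the jasmonate list, to which neither belongs here, did not pass limma's test, with differences of 0.03 to 0.09 and 0 with an unadjusted p under 0.05. The 3 measured heat shock genes did not pass either (0.00 to 0.48), 1 of them with an unadjusted p under 0.05.

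Several genes of lignin formation were higher. Of 8 measured lignin and suberin genes 4 rose, 1 fell and 3 did not pass (median 0.52; 62.5% called, beside 10.3% of all probe sets), and all 5 calls held. With CCOAMT these were CCR2, a cinnamoyl-CoA reductase, and BGLU45 and BGLU46, beta-glucosidases that release monolignols from their glucosides. CCR2 went from 8.63, 8.47 and 8.52 to 9.49, 9.57 and 9.65 (1.03, SE 0.079, adjusted p = 0.000321). BGLU45 rose by 1.06 (SE 0.090, adjusted p = 0.000532) and BGLU46 by 1.07 (SE 0.10, adjusted p = 0.000784). BGLU46 also rose in shoot, by 0.79, while BGLU45 differed there by -0.17 and its root effect minus shoot effect passed (1.23, adjusted p = 0.00536). The fall was that of LAC16, a laccase, from 7.55, 7.37 and 7.20 to 6.64, 6.52 and 6.83 (-0.71, SE 0.12, adjusted p = 0.00958).

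Expansins, which loosen the cell wall, were called lower more often than higher. Of 25 measured members 2 rose (beside 5.65% of all probe sets), 7 fell (beside 4.61%) and 16 did not pass (median -0.18), and the calls that held were 1 rise and 4 falls. After EXPB2 the falls that held were EXLA2 (-0.76, SE 0.11, adjusted p = 0.00459), EXPA4 (-0.53, SE 0.077, adjusted p = 0.00537) and EXPB3 (-0.53, SE 0.083, adjusted p = 0.00763). EXPB3 read 11.20, 11.14 and 11.23 in wild-type root and 10.72, 10.74 and 10.52 in aladin root. The rise that held was EXLA1, an expansin-like gene, from 7.23, 7.34 and 7.20 to 8.48, 8.17 and 8.23 (1.04, SE 0.099, adjusted p = 0.000847). The 2 measured root hair expansins did not pass, EXPA7 at -0.29 (adjusted p = 0.117) and EXPA18 at -0.44 (adjusted p = 0.329).

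Other wall genes moved both ways. Of 10 measured xyloglucan endotransglucosylases, which cut and rejoin xyloglucan, 1 rose, 2 fell and 7 did not pass (30.0% called, beside 10.3% of all probe sets). XTH29 rose by 1.4 (SE 0.14, adjusted p = 0.000934), XTH32 fell by 0.68 (SE 0.10, adjusted p = 0.00638) and XTH33 fell by 0.65 (SE 0.095, adjusted p = 0.0056). XTH33 was also called lower in shoot, with a larger difference (-1.39). CSLC04, a glucan synthase of xyloglucan, rose from 9.79, 9.72 and 9.64 to 10.66, 10.66 and 10.72 (0.97, SE 0.073, adjusted p = 0.000292), with 0.02 in shoot.

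Glutathione transferases were called in both directions. Of 15 measured 3 rose, 5 fell and 7 did not pass (median -0.09; 53.3% called, beside 10.3% of all probe sets), and the calls that held were 1 rise and 4 falls. GSTF3, of the phi class, rose from 5.40, 5.33 and 4.99 to 6.67, 7.02 and 7.04 (1.67, SE 0.14, adjusted p = 0.000532), whereas ATGSTF13, also phi, fell from 7.76, 7.81 and 7.47 to 6.34, 6.56 and 6.45 (-1.23, SE 0.11, adjusted p = 0.000666). The tau-class genes GSTU20 (-0.67, adjusted p = 0.0089), GSTU26 (-0.60, adjusted p = 0.007) and GSTU28 (-0.50, adjusted p = 0.0071) fell, though with 1 spread for all 12 arrays GSTU28 did not pass (adjusted p = 0.221). Among 60 measured UDP-glycosyltransferases, enzymes that attach sugars to small molecules, 6 rose and 6 fell (median -0.02; 20.0% called). UGT73C7 had the largest rise of them (1.47, SE 0.18, adjusted p = 0.00273) and UGT71C1 a fall that held (-0.52, SE 0.087, adjusted p = 0.0101). The share of cytochrome P450s called, 2 of 24 (8.33%), is near the 10.3% of all probe sets, with 1 rise and 1 fall, the latter CYP71B34 (-0.85, SE 0.094, adjusted p = 0.00153). MSRB8, a methionine sulfoxide reductase that repairs oxidised proteins, rose by 1.14 (SE 0.13, adjusted p = 0.0015), and in shoot by 1.11.

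Transporters of sugars and nitrogen compounds changed in single members. Of 19 measured sugar transporters 3 rose, 3 fell and 13 did not pass (median -0.07; 31.6% called, beside 10.3% of all probe sets), and all 6 calls were SWEET genes, which let sucrose or glucose leave or enter cells along its gradient. SWEET11, a sucrose exporter, went from 8.09, 8.31 and 8.22 to 9.34, 9.33 and 9.32 (1.12, SE 0.078, adjusted p = 0.000205), with -0.16 in shoot and a root effect minus shoot effect that passed (1.28, adjusted p = 0.000283). SWEET2, a vacuolar member, rose by 0.74 (SE 0.12, adjusted p = 0.00829) and SWEET14 by 0.69 (SE 0.10, adjusted p = 0.00641). SWEET13 fell by 0.62 (SE 0.10, adjusted p = 0.0109) and SAG29, also known as SWEET15, by 0.52 (SE 0.085, adjusted p = 0.0089). With 1 spread for all 12 arrays SWEET14 (adjusted p = 0.0748), SWEET13 (0.0551) and SAG29 (0.364) did not pass.

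Of 15 measured transporters of nitrate, ammonium and amino acids 3 rose, 1 fell and 11 did not pass (26.7% called, beside 10.3% of all probe sets). AT1G59740, given in RefSeq as NPF4.3, rose from 7.77, 7.98 and 7.79 to 9.34, 9.44 and 9.30 (1.51, SE 0.086, adjusted p = 9.39e-05). AT1G33440, given as NPF4.4, fell from 9.33, 9.28 and 9.44 to 8.5, 8.20 and 8.22 (-1.04, SE 0.10, adjusted p = 0.000925). These members of the NPF family went opposite ways, and neither was called in shoot (-0.10 and -0.27). GTR2, a glucosinolate transporter, rose by 0.39 (SE 0.064, adjusted p = 0.00935), and APS3, an ATP sulfurylase that starts sulphate assimilation, by 0.52 (SE 0.082, adjusted p = 0.00815; 0.0796 with 1 spread for all 12 arrays).

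Auxin response genes were called in both directions. Of 16 measured auxin response genes, of the Aux/IAA, GH3 and LBD families, 4 rose, 2 fell and 10 did not pass (median 0.20; 37.5% called, beside 10.3% of all probe sets), and none of these calls held. GH3.3, which conjugates auxin to amino acids, read 8.30, 9.06 and 8.43 in wild-type root and 9.45, 9.68 and 10.47 in aladin root (1.27, SE 0.29, adjusted p = 0.0352). Its call ended with wild-type root replicate 1 (adjusted p = 0.104) or 3 (0.112) left out, as with aladin root replicate 2 (0.0723) or 3 (0.0655). The share of cytokinin response genes called, 1 of 8 (12.5%), is near that of all probe sets. It was ARR15, a type-A response regulator that is induced by cytokinin, which fell from 5.57, 5.31 and 5.33 to 4.65, 4.19 and 4.38 (-1.0, SE 0.13, adjusted p = 0.00349). In shoot ARR15 was also called lower, with a larger difference (-1.91).

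Of 11 measured genes of abscisic acid, cold and drought 1 rose, 2 fell and 8 did not pass (27.3% called, beside 10.3% of all probe sets). LTI30, a dehydrin, rose from 4.45, 4.42 and 4.59 to 6.04, 5.89 and 5.66 (1.38, SE 0.11, adjusted p = 0.000361), with -0.11 in shoot and a root effect minus shoot effect of 1.49 (adjusted p = 0.000412). KIN2, a cold-induced gene, fell by 0.76 (SE 0.095, adjusted p = 0.00267). Of 25 measured signalling peptide genes 3 rose, 1 fell and 21 did not pass (median -0.06; 16.0% called). CLE41 and CLE44 code for the same peptide, TDIF, which maintains the vascular cambium, and they rose by 0.61 (SE 0.068, adjusted p = 0.0017) and 0.87 (SE 0.10, adjusted p = 0.00226). CLE44 read 5.86, 5.83 and 5.66 in wild-type root and 6.51, 6.62 and 6.83 in aladin root. CLE42, which was not found in RefSeq by its gene number and so stands outside that list, fell by 0.67 (SE 0.11, adjusted p = 0.00874).

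Of 68 measured MADS-box genes, the family of many developmental regulators, 1 rose, 3 fell and 64 did not pass (median -0.05), and the 3 falls held. AGL42, which is expressed in the quiescent centre of the root meristem, went from 6.74, 6.77 and 6.85 to 5.68, 5.56 and 5.45 (-1.23, SE 0.083, adjusted p = 0.000185). AGL19 went from 5.63, 5.85 and 5.80 to 4.54, 4.61 and 4.56 (-1.19, SE 0.081, adjusted p = 0.00019), with 0.48 in shoot and a root effect minus shoot effect of -1.67 (adjusted p = 0.00265). AGL79 fell by 0.97 (SE 0.13, adjusted p = 0.00362). The share of MADS-box genes called lower, 3 of 68, is near the 4.61% of all probe sets.

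Of 33 measured serine carboxypeptidase-like genes, a family chosen after its values were seen, 1 rose, 8 fell (24.2%, beside 4.61% of all probe sets) and 24 did not pass (median -0.21). The calls that held were a rise of scpl16 (1.51, SE 0.15, adjusted p = 0.00107) and falls of SCPL32 (-1.12, SE 0.20, adjusted p = 0.0126), scpl28 (-0.54, SE 0.076, adjusted p = 0.00451) and scpl35 (-0.48, SE 0.072, adjusted p = 0.00641). MT1B, a metallothionein, fell from 5.73, 5.69 and 5.77 to 4.68, 4.49 and 4.92 (-1.04, SE 0.11, adjusted p = 0.00142). Of 6 measured cell cycle and kinesin genes 2 fell (33.3%, beside 4.61% of all probe sets) and 4 did not pass (median -0.28). The fall that held was 3xHMG-box1, a protein that binds mitotic chromosomes, by 0.46 (SE 0.069, adjusted p = 0.00671).

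**Figure D3:**
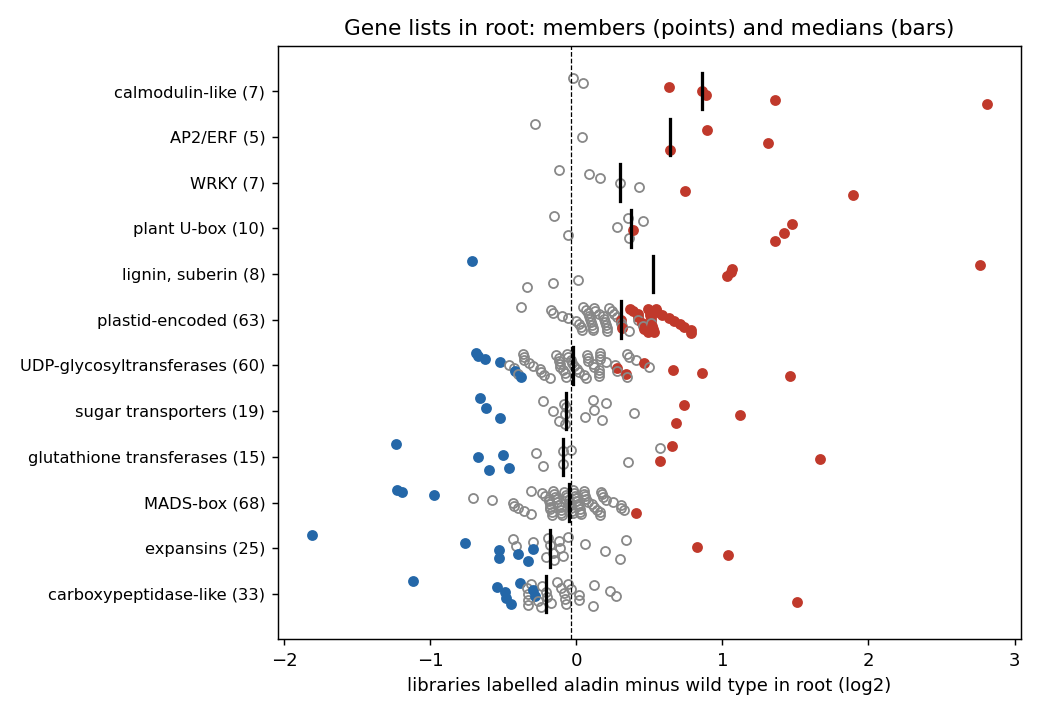
Root differences (log2, horizontal axis) of the measured members of 12 gene lists, 1 point per probe set, with the number measured in brackets. Red points rose, blue points fell, open points did not pass, black bars are list medians and the dashed line is the median of all probe sets at -0.04; the medians of the calmodulin-like, AP2/ERF and lignin genes lie to the right of it and those of the expansins and carboxypeptidase-like genes to the left.

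Nuclear pore and secretory genes were measured in small numbers. Of the 2 nuclear pore genes found by symbol besides ALADIN, 0 passed limma's test, and 0 had an unadjusted p under 0.05. They were NUP155 of the inner ring (-0.12, adjusted p = 0.48) and NUP1 of the nuclear basket (-0.03, adjusted p = 0.835). The 2 measured transport receptors did not pass either, of which XPO1B, an exportin, read 0.27 (adjusted p = 0.149; 0.0409 with a trended, robust prior). Of 10 measured genes of the unfolded protein response 1 rose, 1 fell and 8 did not pass (median 0.02; 20.0% called, beside 10.3% of all probe sets). BZIP60, the transcription factor activated by splicing of its mRNA when proteins misfold in the endoplasmic reticulum, rose from 7.58, 7.67 and 7.74 to 8.43, 8.5 and 8.62 (0.85, SE 0.082, adjusted p = 0.000856), and by 0.68 in shoot.

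Many plastid-encoded genes were higher in aladin root. Of 63 measured 26 rose (41.3%, beside 5.65% of all probe sets), 0 fell and 37 did not pass (median 0.30; 0.07 in shoot, where 4 rose). Of the calls 15 held, 23.8% of the 63, beside 4.81% of all probe sets. By complex, 7 of 10 genes of the NADH dehydrogenase-like complex rose, 3 of 4 of the plastid RNA polymerase, 6 of 13 ribosomal, 2 of 4 ATP synthase, 2 of 5 photosystem I, 2 of 13 photosystem II and 1 of 6 cytochrome genes. The ribosomal gene rps19 rose from 11.81, 11.95 and 11.89 to 12.65, 12.68 and 12.68 (0.79, SE 0.071, adjusted p = 0.000662). The polymerase genes rpoC1 and rpoC2 rose by 0.79 (SE 0.096, adjusted p = 0.00245) and 0.74 (SE 0.075, adjusted p = 0.00108). The dehydrogenase genes ndhD and ndhG rose by 0.67 and 0.54, and psbN, counted with photosystem II by its name alone, by 0.71.

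The mean level of the 63 plastid genes was 11.59, 11.78 and 11.71 in the wild-type root libraries and 11.92, 12.00 and 12.06 in the aladin ones, so the groups did not overlap. The number of plastid genes that rose was 24 with aladin root replicate 1 left out, 22 with wild-type root replicate 2 left out, 17 with wild-type root replicate 1 or 3 left out, and 16 and 15 with aladin root replicates 3 and 2 left out. In such bulk samples more cells of a type and more RNA per cell cannot be told apart, and neither can fewer cells and less RNA per cell.

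Some nuclear genes of green tissue were higher too. A class of 144 nuclear probe sets had a shoot level, as the mean of both genotypes, of 4 log2 units or more above root. This was a class formed after the data were seen, and 34 of the 144 rose (23.6%, beside 5.65% of all probe sets) and 0 fell, with a median of 0.32. The class is low in root by how it was formed, which leaves little room for falls, so nothing is read from the 0 falls. With probe sets of a dim root mean left out 106 remained, of which 35 rose (median 0.37), beside 1106 rises among all 12850 probe sets tested that way. ALDH11A3, an aldehyde dehydrogenase, rose from 4.72, 4.53 and 4.52 to 6.66, 6.06 and 6.62 (1.86, SE 0.16, adjusted p = 0.000601). PSAE-1 of photosystem I rose by 1.38 (SE 0.10, adjusted p = 0.000281), HPR, hydroxypyruvate reductase of photorespiration, by 1.27 (SE 0.13, adjusted p = 0.0012) and NdhL, a nuclear-encoded subunit of the dehydrogenase, by 1.21 (SE 0.15, adjusted p = 0.00246). These 4 genes differed by -0.07 to 0.11 in shoot, and each root effect minus shoot effect passed. Of 9 measured nuclear-encoded subunits of the dehydrogenase and of photosystems I and II, 5 rose, 1 fell and 3 did not pass. That is 66.7% called, beside 10.3% of all probe sets, and the lowest difference was -0.44. This family was added after the data were seen, and the calls that held were 2 rises. Of 11 listed nuclear photosynthesis genes measured 3 rose and 8 did not pass (median 0.47), and none of the 3 held. RCA, the activase of Rubisco, rose by 0.61 (SE 0.12, adjusted p = 0.0187). Leaving out wild-type root replicate 2 (adjusted p = 0.0625) or 3 (0.0682) ended this call.

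The mean level of the 144 shoot-high genes was 4.65, 4.58 and 4.61 in wild-type root and 5.25, 4.87 and 4.98 in aladin root, highest in aladin root replicate 1. Without that library 29 rose and the median was 0.23. The 10 measured shoot markers, summed on the linear scale, gave 1170 to 1210 in wild-type root and 1240 to 1670 in aladin root, with 1670 in aladin root replicate 1. The brightest in wild-type root, LHB1B2 (8.88) and RCA (8.67), weigh most in such a sum, and LHB1B2 differed by -0.14. Of the 10 only RCA was called, a rise of 0.61, and their median difference was 0.08. The others ran from -0.53 (LHCB4.2) to 0.58 (SBPASE). The part of shoot tissue in the root samples in these differences was not tested.

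Genes that mark root over shoot were called in both directions. Of 99 nuclear probe sets at least 4 log2 units higher in root than in shoot 26 fell (26.3%) and 12 rose (12.1%), with a median of -0.19. Of 625 that were 2 to 4 log2 units higher in root 134 fell (21.4%) and 113 rose (18.1%). Of 15299 with under 2 log2 units between the organs 590 fell (3.86%) and 714 rose (4.67%). The 15299 had lower levels, with means of 5.92, 5.91 and 5.91 in wild-type root, beside 7.88, 7.84 and 7.86 for the 625. The shares called were not matched for level. For the 99 the mean levels lay close together, at 9.61, 9.64 and 9.65 in wild-type root and 9.47, 9.55 and 9.58 in aladin root. The 26 falls were fewer without single libraries, 11 with wild-type root replicate 3 or aladin root replicate 2 left out, and 14 and 17 with wild-type root replicates 2 and 1 left out. Of the 56 nuclear falls of at least 2-fold on probe sets with a single gene, 25 (44.6%) were at least 2 log2 units higher in root than in shoot, as were 51 (19.8%) of the 257 such rises and 4.35% of all nuclear probe sets with a single gene. These shares were not matched for level either. The organ classes use the same root values, and genes high in root have more room to fall, so nothing is read from the larger share among falls.

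**Figure D4:**
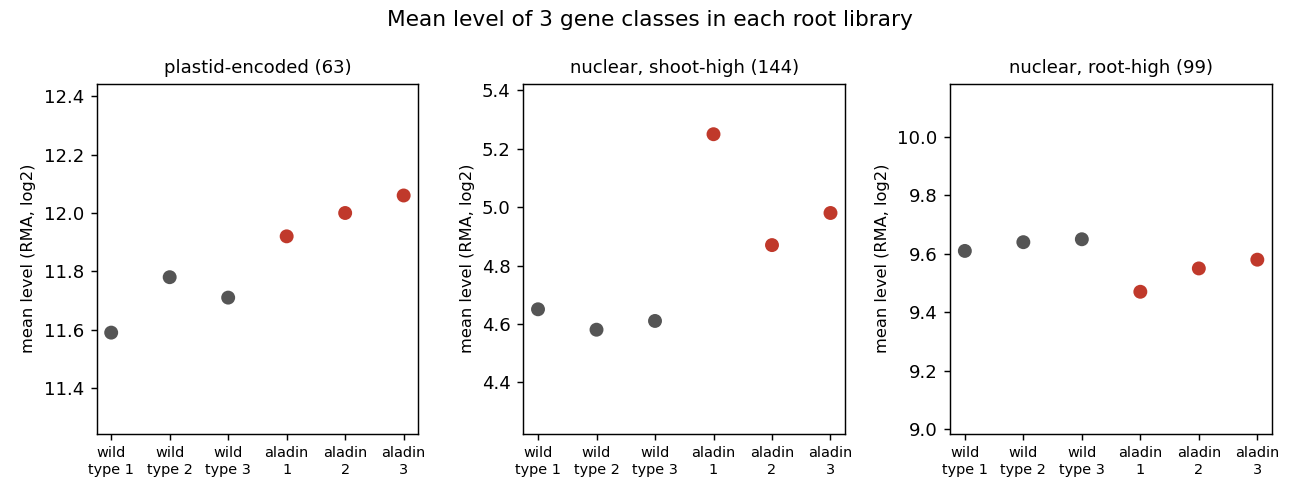
Mean level (RMA, log2, vertical axis) in each of the 6 root libraries of the 63 plastid-encoded genes, the 144 nuclear shoot-high genes and the 99 root-high genes, wild type in grey and aladin in red. All panels span the same range; the plastid and shoot-high classes lie higher in all 3 aladin libraries, and the root-high class slightly lower.

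Most root calls were not called in shoot, where fewer probe sets passed. In a fit over all 12 arrays 518 probe sets (2.96%) passed between the shoot groups. Of these, 228 were also among the 1793 calls of the fit on the 6 root arrays, 12.7% of those root calls and 44.0% of the shoot calls, and 210 of the 228 had the same direction. With both organs taken from the 12-array fit, which called 1336 in root, 203 passed in both, 15.2% of its root calls and 39.2% of its shoot calls, and 193 had the same direction. Among the 987 rises in root 769 also had a positive difference in shoot and the median shoot difference was 0.19, and among the 806 falls 534 had a negative one and the median was -0.10. Pearson's r between root and shoot differences was 0.33 across all tested probe sets, which are not independent replicates.

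The difference between the organs passed its own test for 375 probe sets (2.15%), among them 213 of the root rises and 101 of the root falls. In 209 of the 213 and 100 of the 101 the effect in shoot was smaller or opposite. This follows largely from the choice of probe sets called in root, since both tests use the same root arrays. Leaving out wild-type root replicate 3, 1 or 2 gave 211, 213 and 235, leaving out aladin root replicate 2 or 3 gave 220 and 235, and leaving out any other library gave 284 or more. STZ, PUB23 and MSRB8 are examples of genes with rises in both organs, and AT1G18830, WRKY41, GRX480, LTI30 and SWEET11 are examples whose root rise exceeded the shoot difference.

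**Figure D5:**
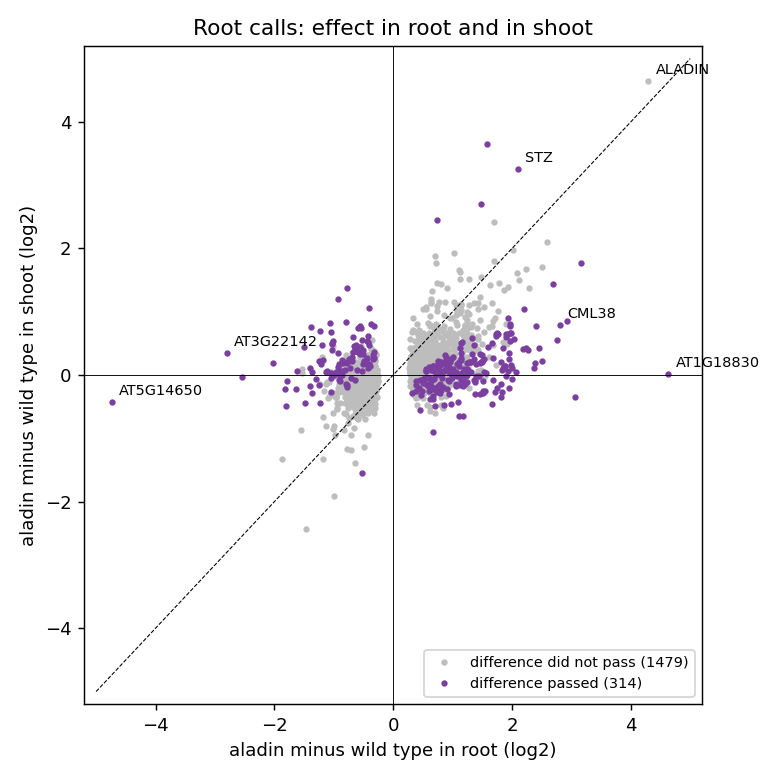
Difference between aladin and wild type in shoot (log2, vertical axis) against that in root (log2, horizontal axis) for the 1793 probe sets called in root, with equality as a dashed line. Purple points are those whose root effect minus shoot effect passed (314); most lie near 0 on the shoot axis, such as AT1G18830 and AT5G14650, while ALADIN lies near the dashed line.

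Root calls were spread over the genome. By chromosome, counting each gene once, the share called was 11.3% on chromosome 1, 9.75% on 2, 9.0% on 3, 9.91% on 4 and 9.8% on 5. In 651 windows of 25 neighbouring measured genes the median was 2 calls and the highest 8, found in 2 windows, and 56 windows held none. The window with ALADIN held 6 calls.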

How the data were processed

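Total RNA of roots and shoots was hybridised to 1 array per sample. The authors deposited RMA values on the log2 scale for 38408 probe sets, per the submitters' processing notes, with software, version and chip description not given in the sources used here. RMA corrects the background, normalizes the arrays to each other and summarises probes, so a shift of all genes alike would not show. The table holds no detection calls, so dim probe sets were kept in the main test. All 12 value columns were used, and precision is limited by the number of arrays.

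Groups came from the sample titles. Genes were named from the array's annotation table and from the RefSeq table of assembly TAIR10.1: 16722 probe sets had exactly 1 gene, 759 several and 20927 none, and 16574 of the first were found in RefSeq. Several probe sets represented 143 genes and were tested one by one. Among the tested, 140 probe sets shared all 12 values with another, so that the 1793 calls rest on 1774 distinct sets of values, and up to 8 probe sets of a single gene were identical. No sequences were used here.

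R 4.3.3 and limma 3.58.1 fitted the 6 root arrays alone (lmFit, eBayes; 4 residual and 3.43 prior degrees of freedom), with Benjamini-Hochberg adjustment and a threshold of 0.05. The root effect minus the shoot effect was fitted on all 12 arrays (8 residual, 3.67 prior). The procedure was tested on simulated data. The 58 gene lists and their 3625 entries were matched by symbol or synonym, and 544 probe sets were found, after genes that only share a name with a list were removed; 10 lists had none and are not described. In 13 measured lists no gene was called. Families of another 8 kinds were added. The comparison, the lists and the tests were chosen with earlier results of these data known.

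Named genes were ALADIN and some of the called genes among its 5 measured neighbours on each side. The 15 largest rises and falls were taken among called probe sets with 1 gene whose groups did not overlap. Also named were at most 3 genes per list, those with the smallest p, and genes carrying a symbol that were chosen after their values were seen. Correlations of deviations between same-numbered root libraries of the 2 genotypes were low (0.0971, 0.0162 and 0.0577). Those between different-numbered ones were -0.0966 to 0.0494, and each aladin library correlated most with its same-numbered wild-type library. No block was used in the main fit, and with a block the root calls numbered 1373. Alternatives changed the normalization, the prior, array weights, the threshold, a replicate block and the probe sets kept, or left out each library. Python 3.11 and matplotlib drew the figures.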

Additional observations from a re-analysis of the deposited data

Results flagged for a closer look

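For 55 of the genes named above the root effect minus the shoot effect passed limma's test over all 12 arrays, so these differences between organs are set out together. Most of these genes were named for their root difference, and both tests use the same root arrays, so the choice favours such passes. Over all probe sets 2.15% passed, and of the 1793 root calls 314 did. In 15 of the 55 the call ended without at least 1 library (adjusted p 0.05 to 0.124), and in 40 it passed with each library left out in turn, which is what held means here. The values are log2 units, root effect minus shoot effect.

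Among genes whose call held, the most negative was AT5G14650 at -4.30, followed by AT3G22142 at -3.15, AT1G52820 at -2.51 and AT4G12170 at -2.22. AT5G36130 (-1.95), ATGSTF13 (-1.92), AT4G12545 (-1.70), AT1G14960 (-1.69), AGL19 (-1.67) and AT3G46270 (-1.61) came next. MT1B was at -1.55, AT2G33850 at -1.4, EXPB2 at -1.33 and AT3G56891 at -0.84. All 14 fell in root and differed less from wild type in shoot, or in the opposite direction.

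The most positive value was that of AT1G18830 at 4.62, followed by AT5G42530 at 3.41, which is mainly a shoot gene. AT4G27654 (2.28), AT2G36650 (2.26), AT1G19210 (2.2), AT5G03204 and GRX480 (2.07 each), CML38 and AT3G01175 (2.02 each) and WRKY41 (1.92) lay between 1.9 and 2.3. ALDH11A3 was at 1.75, AT5G55270 at 1.63, AT1G59740 at 1.61, LTI30 at 1.49, PSAE-1 at 1.45 and CML37 at 1.44. XTH29 was at 1.42, AT3G56920 at 1.4, SWEET11 at 1.28, BHLH92 at 1.24, BGLU45 at 1.23, HPR at 1.18 and NdhL at 1.17. CSLC04 (0.95), PUB22 (0.89) and rps19 (0.59) had the smallest. All of these rose in root.

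The calls that ended without at least 1 library were CCOAMT (2.21), scpl16 (1.79), AT5G57510 (1.25), DLAH (1.15), UGT73C7 (1.13), DREB2C (0.79), CLE41 (0.65) and GTR2 (0.49) among root rises. Among root falls they were AT3G57020 (-1.07), AT3G18900 (-1.04), AGL79 (-1.02), CYP71B34 (-0.86), AGL42 (-0.79) and AT1G33440 (-0.77). STZ (-1.15) rose in both organs, and more in shoot.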

How the results depend on the processing

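With 1 root library left out in turn the calls numbered 1025 to 1448, the rises 646 to 836 and the falls 379 to 612. Both counts were lower whichever library was left out, and the falls (806 in the main fit) dropped in greater proportion than the rises (987). The part of the smaller number of arrays in this drop was not tested. The calls numbered 770 at an adjusted p of 0.01 (528 rises, 242 falls) and 321 with a change of at least 2-fold (264 and 57). Falls numbered 527 with all 12 arrays in 1 fit and 1301 with a trended, robust prior. Renormalizing the root arrays gave 1761 to 1784 calls with 55.2% to 63.5% rises, against 55.0%, and the remaining settings 1336 to 2611. The count of root effects that differed from shoot was 594 with the trended, robust prior, 242 with a replicate block (which ended 15 of the 55 named ones, 5 of them among those that passed without each library: ATGSTF13, AT1G14960, EXPB2, AT3G56920 and rps19, adjusted p 0.0597 to 0.0752) and 211 to 374 without 1 library. Plastid-encoded rises were 15 to 24, shoot-high rises 23 to 29 and root-high falls 11 to 22 without 1 root library, and root-high falls 11 in the 12-array fit and 43 with the trended, robust prior; these class counts were added after the data were seen. The replicate number as a block in the root fit gave 1373 calls, and the labels give no shared origin for it. No correlation of same-numbered deviations passed 0.1, though each was the highest for its aladin library. No named root difference changed sign under any setting run. The cause of these changes was not tested.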
